A study of Mus musculus with 8 samples.

Results

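The lipid handling genes Apoe, Abca1, Abcg1, Lpl, Cd36, Fabp4, Fabp5, Trem2, Gpnmb and Plin2 were followed through bulk RNA sequencing of mouse bone marrow cells. They were picked by symbol, and all 10 were found once in each of the 2 count tables, among 47643 genes of the macrophage table and 52458 of the plasma cell table. The samples came from wild-type B6 mice. GFP-marked Vk*MYC myeloma cells, from a transplantable mouse model of the plasma cell cancer multiple myeloma, had been purified by CD138 and injected into the tibia, and tumour-associated macrophages (TAM) were sorted from the marrow as F4/80 high and CD11b low. Of these, the GFP-positive fraction is labelled as TAM in contact with the myeloma (n = 2), and the GFP-negative fraction as TAM not in contact with it (n = 2). Macrophages from the marrow of naive mice, without tumour, were the controls (n = 2). No treatment was given. A further 2 libraries were labelled plasma cells; the study sorted both Vk*MYC myeloma and polyclonal plasma cells, and the labels do not say which library is which. How many animals stand behind a library is not given in the labels, which number the TAM libraries by mouse. The p-values measure the spread between these libraries, and whether the 2 naive libraries came from separate animals is not stated.

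Macrophages that take up lipoproteins and dying cells must store, burn or export the lipid they receive. ABCA1 and ABCG1 pump cholesterol to lipoprotein acceptors, apolipoprotein E binds it outside the cell, and the nuclear receptors LXR raise the genes of all 3 when oxysterols build up. Lipoprotein lipase (Lpl) frees fatty acids from triglyceride, CD36 takes up fatty acids and oxidized lipoprotein, the fatty acid binding proteins 4 and 5 carry them in the cytosol, and perilipin 2 (Plin2) coats the lipid droplets in which they are stored. TREM2, a lipid-sensing surface receptor, and GPNMB, a glycoprotein of the lysosome and surface, mark lipid-associated macrophages in fat, atherosclerotic plaques and tumours.

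Values are counts scaled to the library's total (CPM), and replicates 1 and 2 are given in that order. Differences are log2 fold changes with their standard errors (SE) from 1 edgeR quasi-likelihood fit of the 6 macrophage libraries, with p-values adjusted over all 15522 genes tested. The macrophage libraries held 28887725 to 46873056 counts and the plasma cell libraries 38343783 and 81792139. At these depths a count of 0 allows at most 0.104 CPM in a macrophage library. Replicate 2 of TAM not in contact stood apart, with 9.13% of its counts on immunoglobulin genes, against 0.166% to 0.632% in the other 5 macrophage libraries. The labels number TAM by mouse, yet the libraries numbered mouse 2 did not match in sex-linked transcripts. The Y-linked gene Ddx3y had 88.4 CPM for TAM in contact and 0.258 CPM for TAM not in contact, and Xist had 0 and 40.4 CPM. Replicate 2 of TAM in contact was the one macrophage library with this male pattern. Of the macrophage markers, the CSF1 receptor gene Csf1r stood between 1120 and 4368 CPM in the 6 libraries and Adgre1, which encodes F4/80, between 519 and 1223 CPM.

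Promoter windows from RefSeq (GRCm38.p6), from 250 bases before to 50 after the start of transcription, were at hand for 6 of the 10 genes. The windows of Abca1 and Gpnmb are shown because these genes had the most negative differences between the TAM groups, and that of Plin2 because it stood above naive macrophages without overlap in both. Capitals mark matches on either strand to 2 motifs, chosen after the windows and values had been seen: the E-box CACGTG, which MiT/TFE factors among others bind, and the AP-1 site TGACTCA.
Abca1 (chr4:53159846-53160145, minus strand): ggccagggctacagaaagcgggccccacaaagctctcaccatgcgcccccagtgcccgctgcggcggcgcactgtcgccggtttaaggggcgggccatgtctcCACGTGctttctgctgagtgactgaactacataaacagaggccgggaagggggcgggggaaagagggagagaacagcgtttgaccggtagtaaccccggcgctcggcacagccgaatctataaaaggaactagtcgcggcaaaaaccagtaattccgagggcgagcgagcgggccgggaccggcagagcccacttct
Gpnmb (chr6:49036268-49036567, plus strand): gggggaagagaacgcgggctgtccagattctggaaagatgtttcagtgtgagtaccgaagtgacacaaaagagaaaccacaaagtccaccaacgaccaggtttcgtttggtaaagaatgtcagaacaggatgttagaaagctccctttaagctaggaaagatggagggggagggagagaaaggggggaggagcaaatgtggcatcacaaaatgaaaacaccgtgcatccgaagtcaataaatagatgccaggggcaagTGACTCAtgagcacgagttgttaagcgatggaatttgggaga
Plin2 (chr4:86670010-86670309, minus strand): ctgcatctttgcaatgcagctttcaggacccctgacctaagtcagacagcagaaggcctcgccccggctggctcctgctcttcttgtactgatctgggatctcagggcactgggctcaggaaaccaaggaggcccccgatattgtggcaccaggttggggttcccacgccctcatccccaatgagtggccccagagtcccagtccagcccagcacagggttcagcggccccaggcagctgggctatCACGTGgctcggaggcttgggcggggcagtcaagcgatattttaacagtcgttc
CACGTG begins 147 bases before the start in Abca1 and 4 before it in Plin2, and was found in 7.15% of 32851 windows of this length. TGACTCA begins 8 bases after the RefSeq start in Gpnmb and was found in 5.20% of the windows. The GENCODE annotation starts Gpnmb at 49036546, downstream of this match. A match describes the letters of the window and says nothing of binding.

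Per length of coding transcript, Apoe was far above the other 9 genes and Gpnmb below them in each of the 6 macrophage libraries. Apoe ranged from 1972 to 10351 CPM per kilobase and ranked between 2 and 16 among 47224 genes. Plin2 (115 to 261 CPM per kilobase) and Lpl (18.6 to 338) followed by geometric mean over the 6 libraries, then Fabp4 (29.5 to 112), Cd36 (20.4 to 125) and Trem2 (11.1 to 59.5). Lpl was above Plin2 in both naive libraries and below it in every TAM library. Lpl, Fabp4, Cd36 and Trem2 traded places between libraries, and their ranges overlapped. Fabp5 (6.20 to 36.7), Abcg1 (7.35 to 23.8) and Abca1 (3.89 to 21.1) also overlapped one another. Gpnmb lay at 0.331 to 4.94 CPM per kilobase.

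The cholesterol exporter Abca1 stood lower in TAM in contact than in either other group. Abca1 (ENSMUSG00000015243.4, GRCm38 chromosome 4, 53030787 to 53159895, minus strand) had 39.9 and 41.2 CPM for TAM in contact, 208 and 168 CPM for TAM not in contact, and 216 and 72.4 CPM for naive macrophages. Both TAM in contact libraries lay below the other 4, and naive replicate 1 was 2.99 times naive replicate 2. The log2 fold change was -2.20 ± 0.53 (adjusted p = 0.185; here and below the groups hold n = 2 libraries each and errors are SE) for TAM in contact versus TAM not in contact and -1.68 ± 0.52 (adjusted p = 0.256) versus naive macrophages. Between TAM not in contact and naive macrophages it was 0.52 ± 0.51 (adjusted p = 0.692). Abca1 did not pass in this test. In bulk RNA, fewer cells that express a gene and less of its RNA per cell cannot be told apart, here and for the other genes. DESeq2 called it lower in TAM in contact in both comparisons, with an adjusted p of 0.00200 against TAM not in contact and 0.0301 against naive macrophages. Over 10 other settings that kept all libraries of the groups the first ran from 3.68e-05 to 0.204, and over 9 such settings the second ran from 0.00186 to 0.301. The value versus naive macrophages was -0.67 without naive replicate 1 and -2.26 without naive replicate 2.

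Abcg1, the partner exporter (ENSMUSG00000024030.6, chromosome 17, 31057675 to 31117988, plus strand), did not share that pattern. It had 75.9 and 58.9 CPM for TAM in contact, 163 and 61.9 CPM for TAM not in contact, and 95.3 and 50.2 CPM for naive macrophages. All 3 groups overlapped, with TAM not in contact replicate 1 above the rest. The differences were -0.74 ± 0.54 between the TAM groups (adjusted p = 0.525), 0.04 ± 0.54 between TAM in contact and naive (adjusted p = 0.978) and 0.78 ± 0.54 between TAM not in contact and naive (adjusted p = 0.559). Without TAM not in contact replicate 1 the first turned to 0.18 and the last to -0.17. An annotated ribosomal RNA gene, Gm25447, overlaps Abcg1 but drew at most 2 counts in a library.

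Apoe (ENSMUSG00000002985.16, chromosome 7, 19696109 to 19699188, minus strand) had 4104.5 and 7987 CPM for TAM in contact, 19026 and 7993 CPM for TAM not in contact, and 6215 and 3625 CPM for naive macrophages. In CPM the TAM not in contact libraries were the highest, but the groups were parted only by 7993 CPM in the lower of them beside 7987 CPM in the higher TAM in contact library. With the scaling of the fit the TAM groups overlapped, at a log2 CPM of 13.06 in TAM in contact replicate 2 and 12.98 in TAM not in contact replicate 2. The log2 fold change was -1.14 ± 0.71 (adjusted p = 0.456) between the TAM groups, 0.46 ± 0.71 between TAM in contact and naive (adjusted p = 0.788) and 1.61 ± 0.72 between TAM not in contact and naive (adjusted p = 0.363). Without TAM not in contact replicate 1 the first was -0.33 and the last 0.76, and without TAM in contact replicate 2 the value of TAM in contact versus naive turned to -0.16.

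Lpl was the one gene of the 10 for which none of the 3 groups overlapped. Lpl (ENSMUSG00000015568.15, chromosome 8, 68880491 to 68907448, plus strand) had 181 and 76.7 CPM for TAM in contact, 447 and 344 CPM for TAM not in contact, and 1393 and 784 CPM for naive macrophages. Every library of TAM in contact lay below TAM not in contact, and every library of TAM not in contact below naive. The difference was -2.93 ± 0.55 between TAM in contact and naive (adjusted p = 0.121), -1.62 ± 0.52 versus TAM not in contact (adjusted p = 0.222) and -1.32 ± 0.52 between TAM not in contact and naive (adjusted p = 0.312). No Lpl value passed in this test, while without the filter on low counts edgeR called Lpl between TAM in contact and naive and between the TAM groups (adjusted p = 2.67e-06 and 0.0129). With single libraries left out the first value lay between -3.63 (leaving out TAM in contact replicate 1) and -2.45 (without naive replicate 1), the second between -2.30 and -1.14 (the lower without replicate 1 of TAM in contact, the higher without its replicate 2), and the last between -1.69 and -0.85 (without naive replicate 1). DESeq2 called Lpl lower in TAM in contact against naive macrophages (adjusted p = 1.63e-06) and against TAM not in contact (adjusted p = 0.0253), where the adjusted p ran from 1.63e-06 to 0.124 over the 9 other settings and from 0.0129 to 0.335 over the 10. With edgeR on the 4 libraries of TAM in contact and naive macrophages alone, the adjusted p was 0.0481.

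Cd36 was the one gene of the 10 with a positive difference between the TAM groups, and it rests on 1 library. Cd36 (ENSMUSG00000002944.15, chromosome 5, 17781690 to 17888801, minus strand) had 112 and 442 CPM for TAM in contact, 158 and 72.0 CPM for TAM not in contact, and 135 and 89.3 CPM for naive macrophages. TAM in contact replicate 2 was the highest of the 6 libraries, while replicate 1 lay within the range of the other groups. The log2 fold change was 1.30 ± 0.73 versus TAM not in contact (adjusted p = 0.416) and 1.48 ± 0.73 versus naive macrophages (adjusted p = 0.403), and 0.18 ± 0.72 between TAM not in contact and naive (adjusted p = 0.938). Without TAM in contact replicate 2 the first was -0.07 and the second 0.10. That library also had the highest summed level of 12 monocyte markers, at 8216 CPM against 4642 CPM in replicate 1. Nr4a1 gave 2473 CPM of this sum against 417 CPM in replicate 1. Ly6c2 (192 against 494 CPM), Ccr2 (618 against 925 CPM), Plac8 and Vcan were lower in replicate 2, and the other monocyte markers were higher. The part of monocyte RNA in the Cd36 value was not tested.

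The fatty acid binding protein genes lie near each other on chromosome 3 but differed in pattern. Fabp5 (ENSMUSG00000027533.10, 10012548 to 10016607, plus strand) had 9.01 and 6.12 CPM for TAM in contact, 36.2 and 13.3 CPM for TAM not in contact, and 17.1 and 10.4 CPM for naive macrophages. Both libraries of TAM in contact were the lowest of the 6. The difference from TAM not in contact was -1.71 ± 0.57 (adjusted p = 0.230), which DESeq2 called (adjusted p = 0.0457, and 0.00788 to 0.357 over the 10 other settings). It was -0.71 ± 0.56 between TAM in contact and naive (adjusted p = 0.578) and 1.00 ± 0.56 between TAM not in contact and naive (adjusted p = 0.455). Without TAM not in contact replicate 1 the value between the TAM groups was -0.76, and that of TAM not in contact versus naive was 0.02. The annotation holds a processed pseudogene of Fabp5, and the sources used here do not say how reads that map to both were counted.

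Fabp4 (ENSMUSG00000062515.3, 10204088 to 10208576, minus strand) had 26.5 and 82.5 CPM for TAM in contact, 34.4 and 101 CPM for TAM not in contact, and 76.0 and 38.4 CPM for naive macrophages. Replicates of 1 group differed by 1.98 to 3.12 times, more than the groups did, and all groups overlapped. TAM in contact differed by -0.26 ± 0.72 from TAM not in contact (adjusted p = 0.889) and by 0.10 ± 0.72 from naive macrophages (adjusted p = 0.959). TAM not in contact differed by 0.36 ± 0.72 from naive macrophages (adjusted p = 0.867). Each of these changed sign when 1 or more single libraries were left out. FABP4 is also made by adipocytes and endothelial cells. Of the adipocyte genes, Lep was at 0 in every macrophage library. Adipoq had 1.13 CPM in TAM not in contact replicate 2 and at most 0.208 CPM in the other 5. TAM not in contact replicate 2, the library highest in Fabp4, was also highest in 9 of 12 endothelial markers, among them Cdh5 (3.48 CPM) and Gpihbp1 (2.06 CPM, with 0 in the other 5), but not in Pecam1, Kdr and Stab2. Platelet and megakaryocyte markers (394 CPM) and plasma cell markers (7266 CPM) also had their highest sums there. The macrophage, monocyte, neutrophil, eosinophil, erythroid and B cell sums did not. The summed level of the 12 endothelial markers was 343 CPM there, and it was lowest, at 181 CPM, in TAM in contact replicate 2, the library with the next highest Fabp4. Pecam1 (83.2 CPM) and Stab2 (172 CPM) made up most of the first sum, and Pecam1 (166 CPM) most of the second. These sums therefore say little of the other endothelial markers. The part of endothelial and adipocyte RNA in the Fabp4 level was not tested.

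Plin2 was the one gene of the 10 that stood above naive macrophages without overlap in both TAM groups. Plin2 (ENSMUSG00000028494.12, chromosome 4, 86648386 to 86670060, minus strand) had 401 and 350 CPM for TAM in contact, 492 and 369 CPM for TAM not in contact, and 217 and 221 CPM for naive macrophages. All 4 TAM libraries lay above both naive libraries, and the TAM groups overlapped. Versus naive macrophages TAM in contact differed by 0.93 ± 0.30 (adjusted p = 0.268) and TAM not in contact by 1.12 ± 0.30 (adjusted p = 0.232). Between the TAM groups it was -0.19 ± 0.29 (adjusted p = 0.789). Neither comparison with naive macrophages passed in edgeR, while DESeq2 called both, with adjusted p-values of 0.0477 (TAM in contact) and 0.00829 (TAM not in contact). Over the 9 other settings the adjusted p in TAM in contact ran from 0.0477 to 0.314, and in TAM not in contact from 0.00829 to 0.349. Leaving out single libraries kept the value between 0.88 and 0.99 in TAM in contact and between 0.83 and 1.34 in TAM not in contact. These comparisons share the naive libraries.

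Trem2 and Gpnmb, the markers of lipid-associated macrophages, had lower levels in both TAM in contact libraries than in both TAM not in contact libraries. Trem2 (ENSMUSG00000023992.14, chromosome 17, 48346401 to 48354147, plus strand) had 12.7 and 19.2 CPM for TAM in contact, 68.0 and 34.8 CPM for TAM not in contact, and 66.2 and 28.8 CPM for naive macrophages. Both TAM in contact libraries lay below the other 4, and the other groups overlapped. The log2 fold change was -1.67 ± 0.54 versus TAM not in contact (adjusted p = 0.225) and -1.41 ± 0.54 versus naive macrophages (adjusted p = 0.323), with 0.26 ± 0.53 between TAM not in contact and naive (adjusted p = 0.869). DESeq2 called the first (adjusted p = 0.0424, and 0.00155 to 0.323 over the 10 other settings). Leaving out TAM not in contact replicate 1 gave -1.06 between the TAM groups, and the value versus naive macrophages was -0.67 without naive replicate 1.

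Gpnmb (ENSMUSG00000029816.10, chromosome 6, 49036546 to 49070929, plus strand) had 4.29 and 1.50 CPM for TAM in contact, 22.3 and 10.4 CPM for TAM not in contact, and 10.4 and 2.77 CPM for naive macrophages. TAM in contact and TAM not in contact did not overlap, and naive replicate 2 fell between the libraries of TAM in contact. The difference between the TAM groups was -2.51 ± 0.86 (adjusted p = 0.235), called by DESeq2 (adjusted p = 0.0258, and 0.00200 to 0.315 over the 10 other settings). With single libraries left out it lay between -3.40 (without TAM in contact replicate 1) and -1.80 (without TAM not in contact replicate 1). For TAM in contact versus naive it was -1.05 ± 0.82 (adjusted p = 0.577) and turned to 0.22 without naive replicate 1. For TAM not in contact versus naive it was 1.46 ± 0.83 (adjusted p = 0.462), and their nearest libraries both stood at 10.4 CPM, with 324 counts in TAM not in contact and 488 in naive macrophages.

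**Figure D1:**
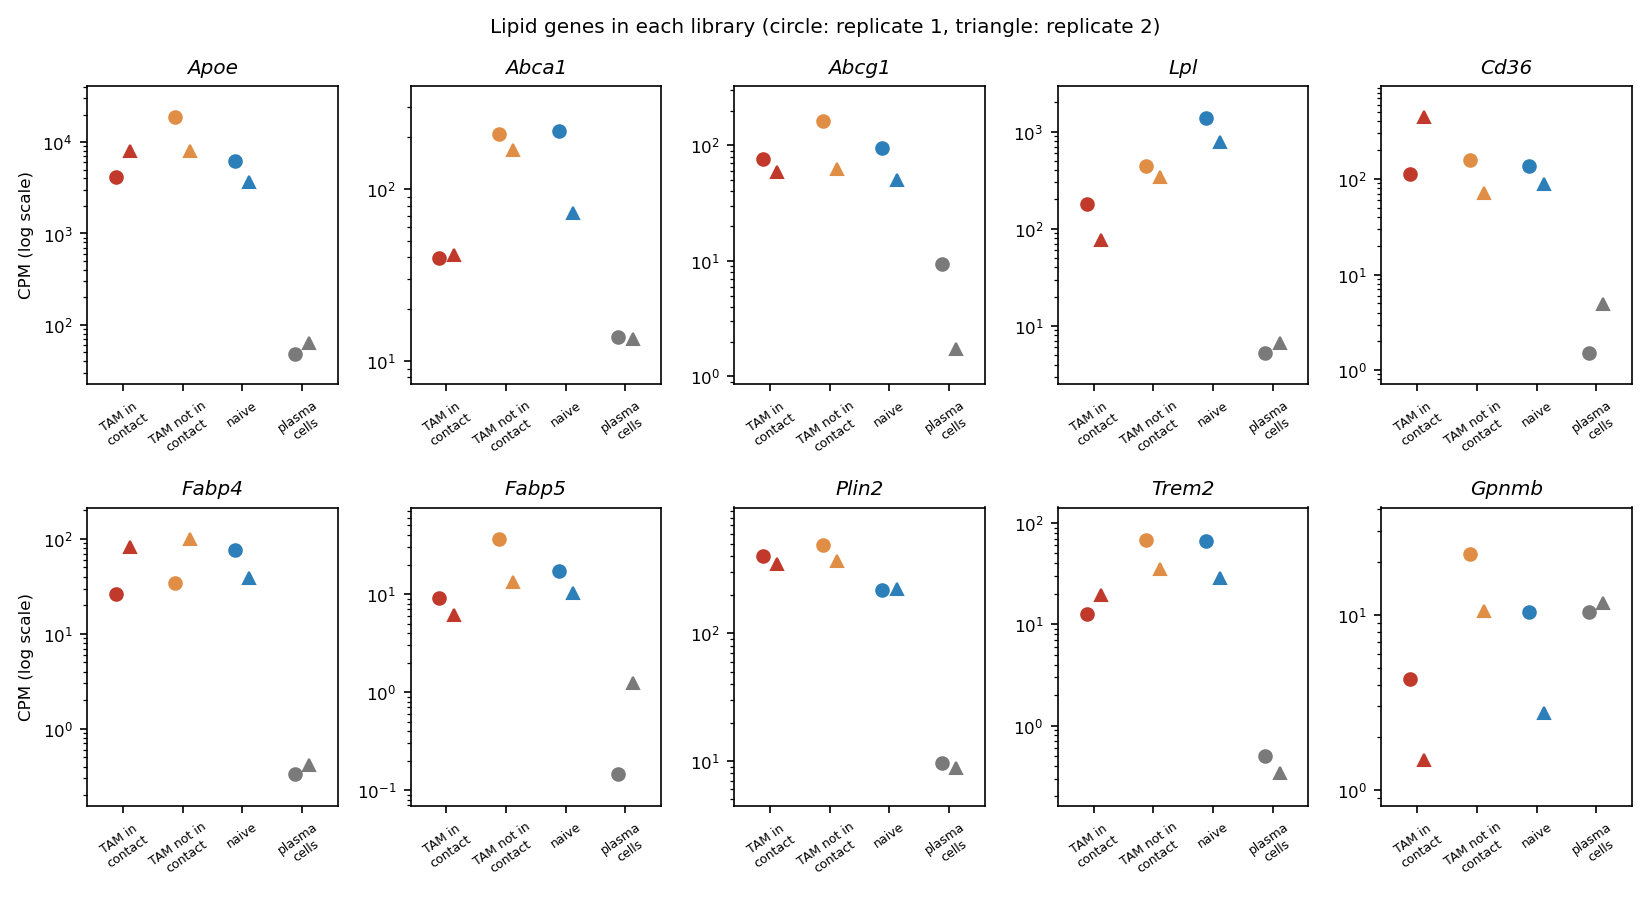
CPM on a log axis for each of the 10 genes, with 1 point per library in TAM in contact, TAM not in contact, naive macrophages and plasma cells. Lpl lies at 76.7 and 181 CPM for TAM in contact, below 344 and 447 CPM for TAM not in contact and 784 and 1393 CPM for naive macrophages, and Gpnmb is the gene whose plasma cell points lie among the macrophage points.

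In TAM in contact versus TAM not in contact, 9 of the 10 genes had negative values, with a median of -1.38 beside -0.00 over all 15522 genes tested. In CPM, Apoe, Abca1, Lpl, Fabp5, Trem2 and Gpnmb were lower without overlap between the groups, 6 of 10, where 22.3% of all tested genes were. Apoe overlapped with the scaling of the fit. In CPM 0 of 10 were higher without overlap, where 24.4% of all tested genes were. EdgeR called 0 of the 10 and 0 of all genes (0%), with 5 of the 10 at an unadjusted p under 0.05 beside 17.1% of all genes. DESeq2 called 5 of the 10, each lower, where it called 7.36% of all genes lower and 10.3% in either direction. These were Abca1, Lpl, Fabp5, Trem2 and Gpnmb. Without a filter edgeR called the same 5 lower, beside 5.35% of all genes lower and 7.2% in either direction, and limma-voom called 0 of the 10 and 0 of all genes. The drop was not particular to the lipid genes. A list of 10 macrophage markers had a median of -1.54 between the same groups, with 6 lower and 1 higher without overlap.

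In TAM in contact versus naive macrophages the median of the 10 was -0.33 beside 0.00 over all genes. Abca1, Lpl, Fabp5 and Trem2 were lower without overlap, 4 of 10, which is near the 36.7% of all tested genes. Plin2 alone was higher without overlap, beside 23% of all genes. EdgeR called 0 of the 10 and 0.219% of all genes, with 4 of the 10 at an unadjusted p under 0.05 beside 14.6% of all genes. DESeq2 called Lpl and Abca1 lower, beside 4.93% of all genes, and Plin2 higher, beside 3.06%, with 7.99% in either direction. Without a filter edgeR called Abca1, Lpl and Trem2 lower, beside 3.06% of all genes, and Cd36 higher, beside 2.47%, with 5.53% in either direction. On the 2 groups alone it called Lpl, beside 3.02% lower and 4.47% in either direction, and limma-voom called 0 of the 10.

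In TAM not in contact versus naive macrophages 9 of the 10 values were positive, with a median of 0.65 beside 0.06 over all genes. Apoe, Gpnmb and Plin2 were higher without overlap, 3 of 10 beside 16.6% of all genes, and Lpl was lower, beside 28.9%. EdgeR called 0 of the 10 and 0 of all genes (0%), with Lpl and Plin2 at an unadjusted p under 0.05 beside 15.2% of all genes. DESeq2 called Plin2 higher, beside 4.51% of all genes higher and 7.95% in either direction. Without a filter edgeR called 0 of the 10, beside 5.96% of all genes, and limma-voom called 0. The 3 comparisons share their libraries pairwise and are not independent.

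**Figure D2:**
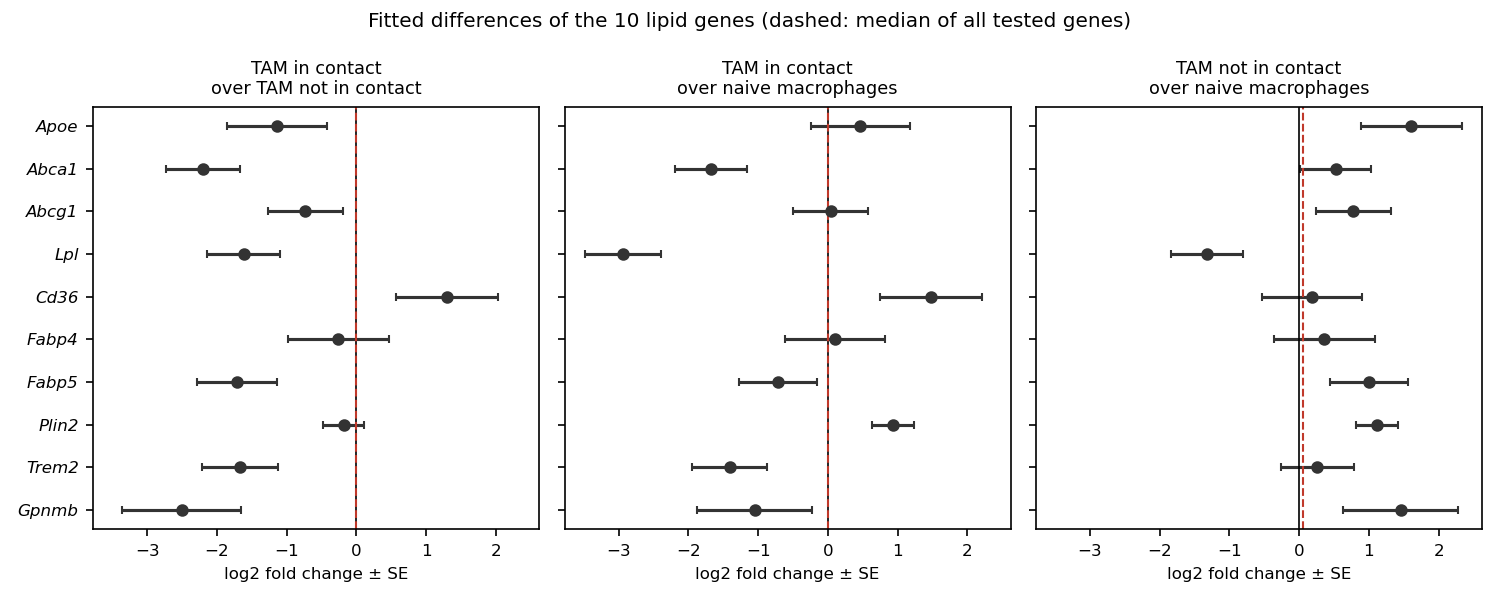
Fitted log2 fold changes with SE bars for the 10 genes in the 3 comparisons, with a dashed line at the median of all tested genes. In TAM in contact versus TAM not in contact Gpnmb (-2.51) and Abca1 (-2.20) lie farthest left and Cd36 (1.30) alone lies right of 0, and Lpl is left of 0 in all 3 panels.

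Other genes of these pathways were followed as lists. EdgeR called 0% of all genes between the TAM groups and 0% in TAM not in contact versus naive. In TAM in contact versus naive it called 0.219%. At these shares, 0 calls in any list below say little of its genes. Of 17 tested genes of the LXR pathway and cholesterol efflux, 0 were called in any comparison, and the medians were -0.03 for TAM in contact versus TAM not in contact, -0.09 for TAM in contact versus naive and -0.03 for TAM not in contact versus naive. Between the TAM groups the smallest p-values belonged to the transporter gene Abca7 (1.69 ± 0.30, adjusted p = 0.135), the lysosomal cholesterol transporter gene Npc1 (-1.48 ± 0.37, adjusted p = 0.185) and the LXR partner receptor gene Rxra (-1.82 ± 0.47, adjusted p = 0.192). Nr1h3, which encodes LXR alpha and was singled out after its values were seen, had 109 and 19.8 CPM for TAM in contact, 428 and 146 CPM for TAM not in contact, and 162 and 82.5 CPM for naive macrophages. Its difference between the TAM groups was -2.18 ± 0.91 (adjusted p = 0.298), and TAM in contact overlapped naive macrophages. The fatty acid desaturase gene Scd1, another LXR target, differed from naive macrophages by -2.18 ± 0.67 in TAM in contact (adjusted p = 0.253) and -3.64 ± 0.71 (adjusted p = 0.219) in TAM not in contact.

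Of 21 tested genes of cholesterol synthesis and LDL uptake 0 were called, and the medians lay between -0.13 and 0.23 in the 3 comparisons. Srebf2, the regulator of that pathway, had 0.65 ± 0.32 in TAM in contact versus TAM not in contact (adjusted p = 0.356) and 0.74 ± 0.32 versus naive (adjusted p = 0.363).

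Among 23 tested genes of lipid droplets, storage and lipolysis 0 were called, with medians of -0.08, -0.27 and 0.02 in the order TAM in contact versus TAM not in contact, TAM in contact versus naive and TAM not in contact versus naive. Mgll, which encodes the lipase that splits monoglycerides, had -1.76 ± 0.40 (adjusted p = 0.173) and -1.95 ± 0.40 (adjusted p = 0.149) in TAM in contact versus TAM not in contact and versus naive. The hormone-sensitive lipase gene Lipe stood on the other side, at 1.08 ± 0.30 (adjusted p = 0.201) and 1.10 ± 0.30 (adjusted p = 0.223). In the list of 20 tested PPAR pathway and fatty acid oxidation genes 0 were called, with medians of -0.20, -0.31 and 0.07. Angptl4, an inhibitor of lipoprotein lipase, had 22.6 and 4.13 CPM for TAM in contact, 96.8 and 47.0 CPM for TAM not in contact, and 63.0 and 44.5 CPM for naive macrophages (-2.44 ± 0.80 between the TAM groups, adjusted p = 0.225). Both Angptl4 and Lpl were lowest in the 2 libraries of TAM in contact.

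Of 13 tested lipoprotein uptake and scavenger receptor genes 0 were called, with medians of -0.74, -0.33 and 0.61, unchanged with the gene at 0 set to its bound. The collagen-like scavenger receptor gene Marco was at 0 in both TAM in contact libraries, 0.556 and 0.161 CPM for TAM not in contact and 8.32 and 7.65 CPM for naive macrophages, so that it was at least 233-fold lower in TAM in contact than in naive macrophages, counting 3 counts over the group as the limit. The hemoglobin scavenger gene Cd163 had -5.22 ± 0.99 (adjusted p = 0.147) versus TAM not in contact and -6.71 ± 1.07 (adjusted p = 0.0908) versus naive.

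The wider list of lipid-associated macrophage genes held 26 tested members. Between the TAM groups 20 of the 26 had negative values (median -0.77), and 0 were called. Without overlap 12 were lower, beside 22.3% of all tested genes, and 3 higher, beside 24.4%. Versus naive macrophages TAM in contact had 14 negative values (median -0.24) with 1 called lower and 0 higher, beside 0.219% of all genes called, and TAM not in contact had 18 positive values (median 0.59) with 0 called. The called gene was the growth factor gene Igf1 (-4.91 ± 0.48, adjusted p = 0.0425). The list went both ways in TAM in contact versus naive, where the cathepsin gene Ctsd had -2.74 ± 0.59 (adjusted p = 0.156) and the beta-glucan receptor gene Clec7a 1.69 ± 0.39 (adjusted p = 0.179). Spp1, the gene of osteopontin, had 1.83 ± 0.36 in TAM not in contact versus naive (adjusted p = 0.219). Of the 4 MiT/TFE factors, which drive lysosomal genes and Gpnmb, Tfec had -1.41 ± 0.34 (adjusted p = 0.185) and Mitf -1.48 ± 0.49 (adjusted p = 0.230) between the TAM groups. Tfeb had 0.88 ± 0.40 (adjusted p = 0.326) and Tfe3 -0.05 ± 0.24 (adjusted p = 0.936) there. Tfec (6.98 to 32.2 CPM) and Mitf (4.18 to 13.8 CPM) stood below Tfeb (74.8 to 227 CPM) and Tfe3 (137 to 174 CPM). The MiT/TFE list had 0 calls and medians of -0.73 between the TAM groups, -0.21 in TAM in contact versus naive and 0.02 in TAM not in contact versus naive.

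**Figure D3:**
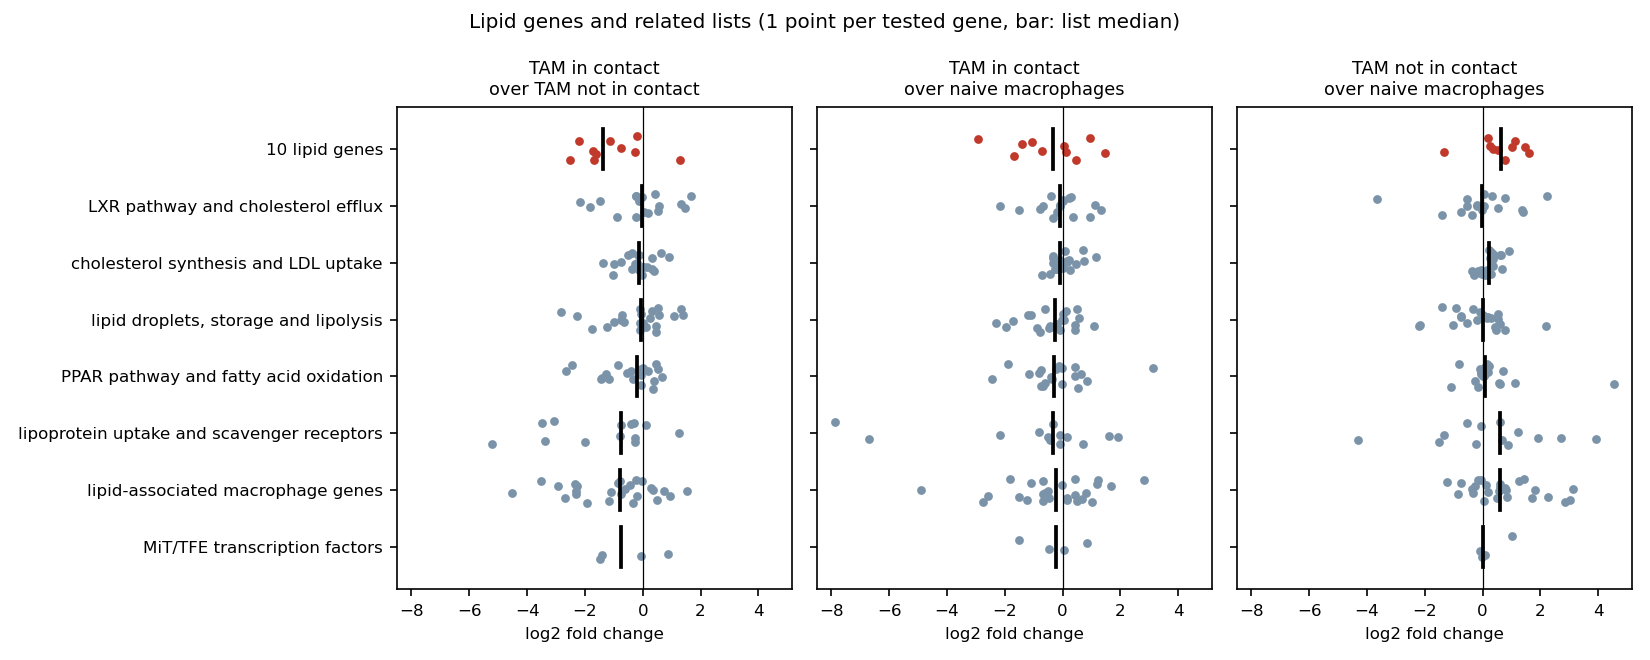
Log2 fold changes of single genes in the 10 lipid genes and 7 related lists, 1 point per tested gene with a bar at the list's median, in the 3 comparisons; Marco is drawn at its bound where it was at 0 in a group. Between the TAM groups the median of the 10 genes is -1.38, those of the lipid-associated macrophage, scavenger and MiT/TFE lists are -0.77, -0.74 and -0.73, and those of the other 4 lists lie between -0.20 and -0.03. The macrophage markers, not drawn here, have a median of -1.54 in that comparison.

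Markers of other marrow cells differed between the same libraries. The summed level of 12 neutrophil markers was 53055 and 30582 CPM for TAM in contact, 9460 and 20003 CPM for TAM not in contact, and 53377 and 83817 CPM for naive macrophages, and all 12 had positive values in TAM in contact versus TAM not in contact. The 12 monocyte markers summed to 4642 and 8216 CPM for TAM in contact, 2394 and 3543 CPM for TAM not in contact, and 1271 and 1728 CPM for naive macrophages, with 11 of 12 positive between the TAM groups and 12 of 12 versus naive. Eosinophil markers summed to 967 and 1499 CPM, 242 and 638 CPM, and 1756 and 2372 CPM in the same order of groups, with 8 of 10 positive between the TAM groups (median 4.45). Ccr3 (-4.15) and Il5ra (-3.51) were negative, and Ccr3 gave 169 and 488 CPM of the TAM not in contact sums and 1083 CPM in naive replicate 1. The granule gene Epx had 213 and 245 CPM for TAM in contact and 1.69 and 3.87 CPM for TAM not in contact. Of 10 macrophage markers 8 had negative values between the TAM groups, with a median of -1.54 over all 10. The most negative was Mertk, a receptor for dying cells. It had 42.7 and 15.6 CPM for TAM in contact and 446 and 419 CPM for TAM not in contact. Lyz2 and Csf1r were positive. Lyz2 had 15163 and 19978 CPM for TAM in contact and 6006 and 4187 CPM for TAM not in contact, without overlap. Csf1r had 2396 and 4368 CPM for TAM in contact and 3254 and 1389 CPM for TAM not in contact, with overlap. None of these lists had a called gene between the TAM groups. There edgeR called 0 of all 15522 genes, so the lack of calls does not show that the markers were alike. The part of these lists in the values of the 10 lipid genes was not tested.

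**Figure D4:**
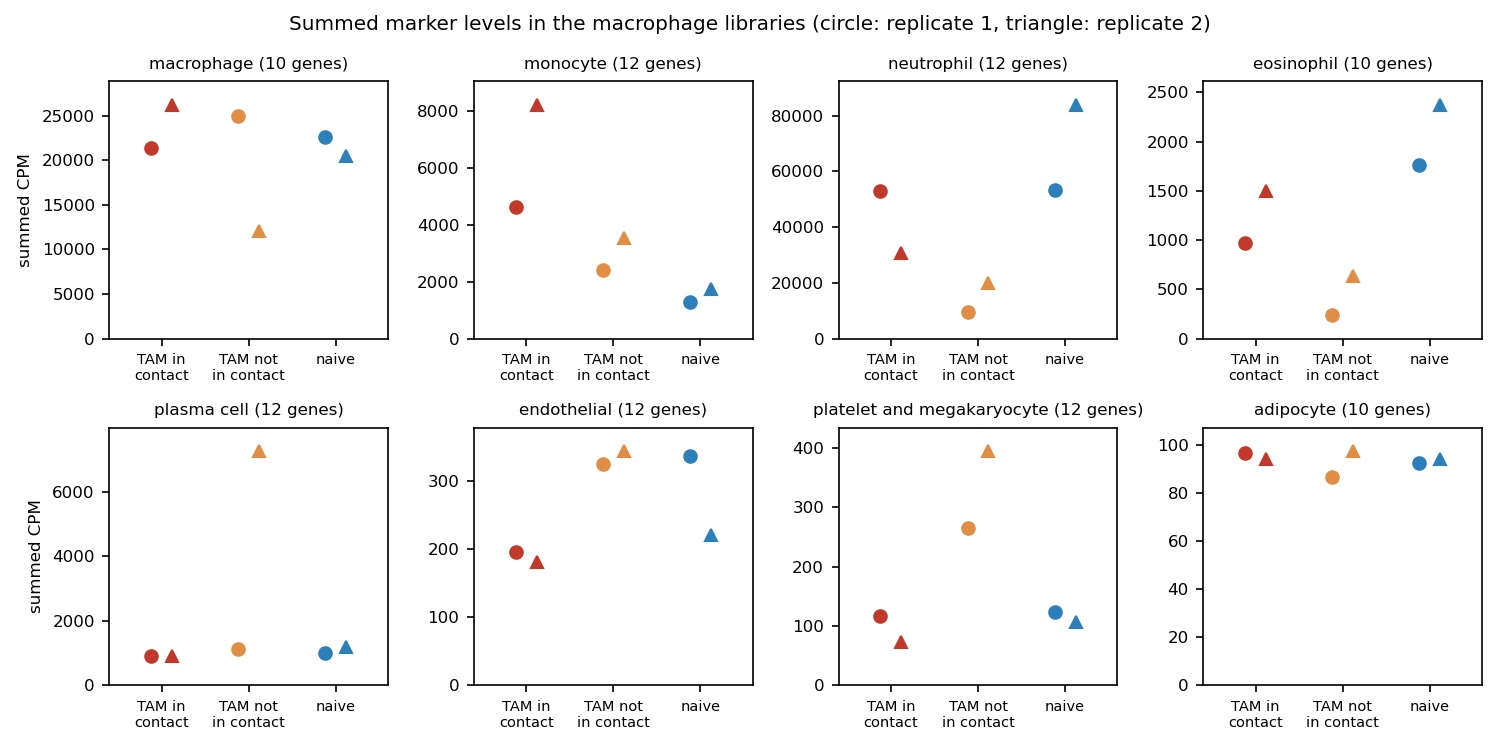
Summed CPM of marker genes of 8 cell types in the 6 macrophage libraries, on axes that start at 0. The monocyte sum is highest in TAM in contact replicate 2 (8216 CPM, of which Nr4a1 gives 2473 CPM), the plasma cell sum in TAM not in contact replicate 2 (7266 CPM). The adipocyte sum, 86.7 to 97.3 CPM, is nearly all Lipe and Cebpa, which macrophages also express and which differ between the TAM groups by 1.08 and -0.79.

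The plasma cell libraries, counted in a table of their own, served as a view of the tumour's cell type and were not tested against macrophages. Immunoglobulin genes took 67.3% and 70.4% of their counts. For 9 of the 10 genes both plasma cell libraries lay below every macrophage library: Apoe had 48.5 and 62.9 CPM, Abca1 13.8 and 13.5, Abcg1 9.49 and 1.72, Plin2 9.57 and 8.76, Lpl 5.32 and 6.65, and Cd36 1.52 and 4.96 CPM. Fabp4 (0.330 and 0.417 CPM), Trem2 (0.501 and 0.339 CPM) and Fabp5 (0.147 and 1.23 CPM) were near 0. Gpnmb was the exception, with 10.4 and 11.7 CPM in plasma cells beside 1.50 to 22.3 CPM in macrophages. Scaled to counts outside immunoglobulin genes, a setting added after the data were seen, 8 of the 10 lay below. Abca1 then had 42.2 and 45.5 CPM in plasma cells, just above the 40.0 and 41.3 CPM of TAM in contact, and Gpnmb had 31.8 and 39.4 CPM in plasma cells, above each macrophage library (1.50 to 22.4 CPM). Plasma cell markers were highest in TAM not in contact replicate 2 (7266 CPM, against 893 to 1187 CPM elsewhere). Gpnmb had 22.3 CPM in replicate 1 and 10.4 CPM in replicate 2 of that group, and without replicate 2 its value between the TAM groups was -2.99. The part of plasma cell RNA in it was not tested.

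Genes were paired with the gene whose centred log2 CPM profile over the 6 macrophage libraries lay closest, by root mean square distance, among 8876 genes of sufficient level. Trem2 lay closest to Fcgrt, the neonatal Fc receptor gene, at a distance of 0.22, where Trem2 itself varied by 0.86. Cd36 was closest to the iron regulator gene Hfe (0.20 against 0.88) and Gpnmb to Tns1, which encodes the adhesion protein tensin (0.26 against 1.30). Abcg1 was closest to Luzp1 (0.11), Fabp5 to Zbtb4 (0.18), Lpl to Fam213a (0.34), Apoe to Slc38a7 (0.34) and Fabp4 to Gm45223 (0.37). Among the 10 themselves, Abca1 and Trem2 were the closest pair (0.36). With 6 libraries in 3 groups, such distances describe these samples alone.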

How the data were processed

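Deposited values are the authors' unnormalized counts of reads by gene, 1 table for 6 macrophage libraries and 1 for 2 plasma cell libraries. Per the labels' protocols the kit was SMART-Seq v4. STAR, featureCounts, DESeq2 1.26, mm10 and GRCm38 appear in the submitters' processing notes without roles. The sources used here do not give the annotation, the strand setting or how multimapping reads were counted.

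Identifiers were matched without their version to GENCODE M21 (GRCm38): 47224 of 47643 matched, and the rest held at most 0.117% of a library. Levels per kilobase use the merged exons of coding transcripts in the basic annotation. The 6 macrophage libraries were fitted together by group in edgeR 4.0.16, quasi-likelihood (R 4.3.3, TMM scaling, filterByExpr with minimum count 10, default quasi-dispersion, 3 residual degrees of freedom), with calls at 0.05 after Benjamini-Hochberg adjustment over all genes. All 10 genes passed the filter. Log2 CPM profiles used a prior count of 2 and a mean of at least 3. DESeq2 1.42.0, limma-voom (limma 3.58.1), other scalings, filters, blocks and left-out libraries were alternatives. Scripts were tested on simulated counts. The plasma cell table was counted apart and is given beside the rest without a test. Reads carry no molecular identifiers, so limits cover counting error only.

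The 10 genes, the 7 related lists, the 10 marker lists and the tests were chosen with earlier results of these data known. Named were all 10 genes, up to 3 genes per related list with the smallest p in a comparison, leading or defining markers, and the closest profile of each gene. A few genes that these rules name are not reported here.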

Additional observations from a re-analysis of the deposited data

How the results depend on the processing

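Of 30 differences of the 10 genes, recomputed under up to 10 settings that leave out no library of the groups compared, 253 of 280 values kept their direction and their side of the threshold, 19 gained a call and 8 reversed. The reversals were small values of TAM in contact versus naive macrophages. Abcg1 turned to -0.0091 with DESeq2, -0.0087 with RLE scaling, -0.11 without scaling factors, -0.042 with the stricter filter and -0.00089 with the 2 groups alone. Fabp4 turned to -0.079 with limma-voom, -0.070 without scaling factors and -0.24 with the replicate block. Leaving out scaling factors shifted the median of all genes by -0.16 (TAM in contact versus naive) and -0.14 (TAM not in contact versus naive). With 1 library left out, 19 of 180 values reversed and 0 gained a call; a group left with 1 library was assumed to vary like the others. These values ranged, for TAM in contact versus TAM not in contact, from -1.34 to 0.64 for Fabp4, -0.065 to 2.02 for Cd36, -1.31 to 0.18 for Abcg1 and -0.43 to 0.087 for Plin2. For TAM in contact versus naive they ranged from -0.35 to 0.59 for Abcg1, -0.16 to 0.92 for Apoe, -1.01 to 0.73 for Fabp4 and -1.95 to 0.22 for Gpnmb. For TAM not in contact versus naive they ranged from -0.17 to 1.32 for Abcg1, -0.58 to 0.65 for Cd36, -0.39 to 0.99 for Trem2, -0.58 to 0.93 for Fabp4 and -0.074 to 1.52 for Abca1. The cause was not tested.

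Calls depended on the tool and the filter. Among the 10 genes, DESeq2 called 5, 3 and 1 (TAM in contact versus TAM not in contact, TAM in contact versus naive, TAM not in contact versus naive), edgeR without a filter 5, 4 and 0, and edgeR on the 2 groups alone 0, 1 and 0; the main test and the other 7 settings called 0. Among all genes the main test called 0, 34 and 0, DESeq2 1593, 1191 and 1264, edgeR without a filter 1871, 1437 and 1548, and bias-adjusted quasi-dispersions 22, 56 and 0. For TAM in contact versus naive, limma-voom called 0, RLE scaling 22, no scaling factors 18 and the 2 groups alone 664. With 1 library left out, counts ranged from 0 to 1510, 0 to 534 and 0 to 477, the highest each without TAM not in contact replicate 1. The labels give both TAM groups mouse numbers 1 and 2, but the libraries numbered 2 differ in sex-linked transcripts, so the numbers were not taken as pairs; deviations of same-numbered libraries correlated across genes at 0.152 between the TAM groups. With the replicate block over all groups edgeR called 28, 57 and 0 genes, and in the 4 TAM libraries 34, and 0 of the 10 genes in each. The block over all groups ties the naive libraries to the TAM mouse numbers, a link that the labels do not give.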

Other observations

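Markers of further marrow cells also differed between the macrophage libraries, and their part in the values above was not tested. Platelet and megakaryocyte markers summed to 116 and 73.2 CPM for TAM in contact, 265 and 394 CPM for TAM not in contact, and 124 and 107 CPM for naive macrophages, with 11 of 12 negative in TAM in contact versus TAM not in contact (median -2.26). Endothelial markers summed to 196 and 181 CPM, 324 and 343 CPM, and 336 and 220 CPM in the same order, with a median of -1.72 between the TAM groups. Pecam1 and Stab2 made up most of each endothelial sum, with Stab2 alone at 264 CPM in naive replicate 1. Erythroid markers summed to 163 and 57.3 CPM for TAM in contact, 179 and 267 CPM for TAM not in contact, and 509 and 375 CPM for naive macrophages. B cell markers summed to 141 and 153 CPM, 257 and 232 CPM, and 537 and 658 CPM in that order. All 10 B cell markers were lower in TAM in contact than in naive macrophages without overlap, beside 36.7% of all tested genes, with 0 called by edgeR, beside 0.219%. Of the 12 plasma cell markers all had negative values in TAM in contact versus TAM not in contact (median -3.43).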
